A study of Drosophila melanogaster with 3 samples.

Results

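MicroRNA genes of Drosophila melanogaster were examined for Elba2 binding in the early embryo. They were taken by symbol from the gene annotation, as every gene named mir- followed by its number or name, with bantam and let-7 listed there as mir-ban and mir-let7. There were 262 such hairpin genes among 17796 annotated genes other than transposable elements. Of these, 260 lay on the chromosome arms and entered the counts, and 2 lay on a ribosomal DNA scaffold and did not.

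The assay was chromatin immunoprecipitation followed by sequencing (ChIP-seq). The 3 samples were labelled biological replicates 1, 2 and 3 of a single group: pooled male and female whole embryos aged 0 to 4 h, of strain CG9883-GFP, a stable transgenic line carrying Elba2 fused at its C terminus to green fluorescent protein. Chromatin was sonicated to 200 to 800 bp and pulled down with an antibody to the tag. There was no second condition, no untagged line and no input among the samples, and the control library used for peak calling was not used here. Whole embryos mix all cell types of that age. The lists hold positions of bound DNA and no expression values, so neither the stage nor the activity of any microRNA could be checked with markers.

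Elba2 is one of the BEN-domain subunits of ELBA, a complex known in the early fly embryo for binding insulator DNA between regulatory domains. A microRNA starts as a long primary transcript in which a hairpin is folded. Drosha and its partner Pasha cut the hairpin out, Dicer-1 trims it, and the short mature RNA is loaded on Argonaute-1, where its seed pairs with target messages. The start of the primary transcript can lie far from the hairpin, and a hairpin inside another gene, its host, can be made from that gene's transcript. Distances to hairpins and distances to host start sites therefore describe different things and are given separately.

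The deposited peak lists, on genome build dm6, held 3276 peaks in the optimal set, which the authors took by irreproducible discovery rate (IDR), a measure of how well ranks repeat between replicates. A permissive list of peaks and background held 28496 regions for the 3 replicates pooled, and the replicate lists held 29295, 30000 and 30000. Each peak has a summit, its point of highest enrichment, and a signal value given by the authors on an unstated scale. Ranks run from 1, the strongest signal in a list. The optimal peaks were the 3276 strongest of the pooled list, with signals from 109 to 1355 and a median of 159. Read counts were not used here and sequencing depth is therefore unknown. Exact (Clopper-Pearson) 95% intervals below cover counting error over hairpins or genes only, and hairpins that share a cluster or a peak are not independent.

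The mature RNAs of the hairpins that the results turn on are shown first, read from the Release 6 genome at the positions of the RefSeq annotation, 5′ to 3′. Capitals mark the seed, bases 2 to 8, which sets target pairing. The list shows the loci beside the 6 strongest of the peaks near hairpins, their cluster partners, and bantam as a well known locus just outside the distance used.
mir-279 (3p arm, 3R): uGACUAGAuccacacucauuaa
mir-996 (3p arm, 3R): uGACUAGAuuucaugcucgucu
mir-92a (3p arm, 3R): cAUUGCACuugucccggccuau
mir-92b (3p arm, 3R): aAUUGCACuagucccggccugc
mir-275 (3p arm, 2L): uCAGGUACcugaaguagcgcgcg
mir-305 (5p arm, 2L): aUUGUACUucaucaggugcucug
mir-282 (5p arm, 3L): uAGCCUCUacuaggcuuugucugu
mir-4949 (5p arm, 3R): cGGCACACucgcacacacaca
mir-4949 (3p arm, 3R): aGUGGUGUgcgugugugccucg
mir-iab-4 (5p arm, 3R): aCGUAUACugaauguauccuga
mir-iab-8 (5p arm, 3R): uUACGUAUacugaagguauaccg
mir-ban (3p arm, 3L): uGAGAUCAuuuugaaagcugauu

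mir-279 and mir-996 share the seed GACUAGA, which is found in 3 hairpins, the other being mir-286 of the mir-309 cluster. mir-92a and mir-92b share AUUGCAC with mir-310, mir-311, mir-312 and mir-313, 6 hairpins in all. The seed of mir-275 occurs also in mir-306. Across the 260 hairpins, 481 mature RNAs carried 426 different seeds, of which 33 occurred in 2 or more hairpins. Members of a seed family can therefore lie at separate loci with different peaks around them, as mir-279 and mir-286 do.

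Sequences around 3 summits are also shown, each 121 bases of the plus strand centred on the summit. They are the strongest peak near any hairpin, the peak at the start of the same primary transcript, and the strongest peak near a clustered pair on another arm. Capitals mark CCAATAAG, the asymmetric ELBA site, or CCAATTGG, a palindrome bound by the related BEN protein Insensitive. Both were searched on both strands. They begin alike and cannot match at the same position.
strongest peak near mir-279 (3R:29215203-29215323): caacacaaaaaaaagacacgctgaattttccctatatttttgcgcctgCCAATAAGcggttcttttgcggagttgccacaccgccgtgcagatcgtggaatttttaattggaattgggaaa
peak at the start of lncRNA:CR31044 (3R:29214377-29214497): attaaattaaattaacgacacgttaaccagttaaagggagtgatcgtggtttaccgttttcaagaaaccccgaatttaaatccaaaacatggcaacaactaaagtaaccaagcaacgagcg
peak downstream of mir-305 (2L:7426629-7426749): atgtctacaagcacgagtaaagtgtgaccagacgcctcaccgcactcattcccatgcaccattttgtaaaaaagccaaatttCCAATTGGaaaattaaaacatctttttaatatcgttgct

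Few hairpins lay beside a strong Elba2 peak. Within 1000 bp of an optimal summit were 15 of 260 hairpins, 5.77% (95% interval 3.26 to 9.34). Placing each hairpin's length at all positions of its arm gave 4.58% on average, which is inside that interval. At this distance the microRNA hairpins as a group were therefore not distinguishable from arm positions. Other genes no longer than the longest hairpin, 174 bp, had a summit within 1000 bp in 56 of 731 cases, or 7.66%. Transfer RNA genes reached 8.62% and small nucleolar RNA genes 8.92%, all 3 shares within the interval of the hairpins. Protein-coding genes, measured from the nearest base of a much longer body, reached 26.7%.

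Regions of the permissive pooled list were near hairpins more often than near arm positions. That list had a summit within 1000 bp of 121 of 260 hairpins, 46.5% (95% interval 40.4 to 52.8), against 31.5% of arm positions. The interval does not reach the level of arm positions. The other short genes had 48.8%, inside the interval of the hairpins, while tRNA genes had 62.8% and snoRNA genes 56.9%, both above it. When hairpins and positions were both limited to within 10 kb of a protein-coding transcription start site (TSS), a limit added after the data were seen, 112 of 218 hairpins stood at 51.4% against 37.4% of positions. The same limit gave 5.96% against 5.84% for the optimal set. In 13 hairpins the pooled summit fell inside the hairpin itself, 5.00% against 1.94% of arm positions.

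The replicates gave the same picture in their own lists. Among the strongest 3276 regions of each, 16 hairpins in replicate 1, 13 in replicate 2 and 22 in replicate 3 lay within 1000 bp. The mean was 6.54% ± 1.76 (SD, n = 3) against 4.56% of arm positions, a gap of little over 1 SD. Replicate 3 stood highest, and 8 of its 22 hairpins were the mir-309 cluster. With all regions of each list, the counts were 115, 131 and 116 hairpins, or 46.4% ± 3.45 (SD, n = 3), against 33.1% ± 0.737 of arm positions. The lowest replicate, at 44.2%, lay above the highest level of arm positions, at 33.9%. Over the strongest regions, 29 hairpins lay near one in at least 1 replicate, 12 in at least 2, and 10 in all 3. Those 10 were mir-275, mir-305, mir-9374, mir-282, mir-iab-4, mir-iab-8, mir-92a, mir-279, mir-4949 and mir-9377, all of which were also near an optimal summit. Any of the strongest regions within 1000 bp counted here, so that the region can be another one in each replicate, as for mir-9374 and mir-9377.

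The gap to arm positions widened with distance for strong peaks. Within 500 bp of an optimal summit lay 5 hairpins, 1.92% against 2.49% of positions. Within 2000 bp there were 33, 12.7% against 8.40%, and within 5000 bp 67, 25.8% against 17.9%. Within 10000 bp there were 123, 47.3% against 29.9%. The level of positions lay inside the interval of the hairpins at 500 and 1000 bp (0.627 to 4.43 and 3.26 to 9.34) and below it from 2000 bp outward (8.90 to 17.4 at 2000 bp). These intervals treat hairpins of a cluster as independent. With clusters counted once, the 33 hairpins within 2000 bp were 24 of 203 loci. No interval or level was computed for loci at that distance, so the step at 2000 bp can rest on shared peaks. In replicates 1, 2 and 3 the shares within 10000 bp of the top regions were 48.1%, 47.7% and 38.5%, a mean of 44.7% ± 5.44 (SD, n = 3) against 29.7%. All 3 exceeded the position level, and replicate 3 was the lowest. Of the 260 hairpins, 218 lay within 10 kb of a protein-coding TSS, and the part of gene density in the shares at the longer distances was not tested. The median hairpin lay 11416 bp from the nearest optimal summit and 1195 bp from the nearest pooled summit.

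**Figure D1:**
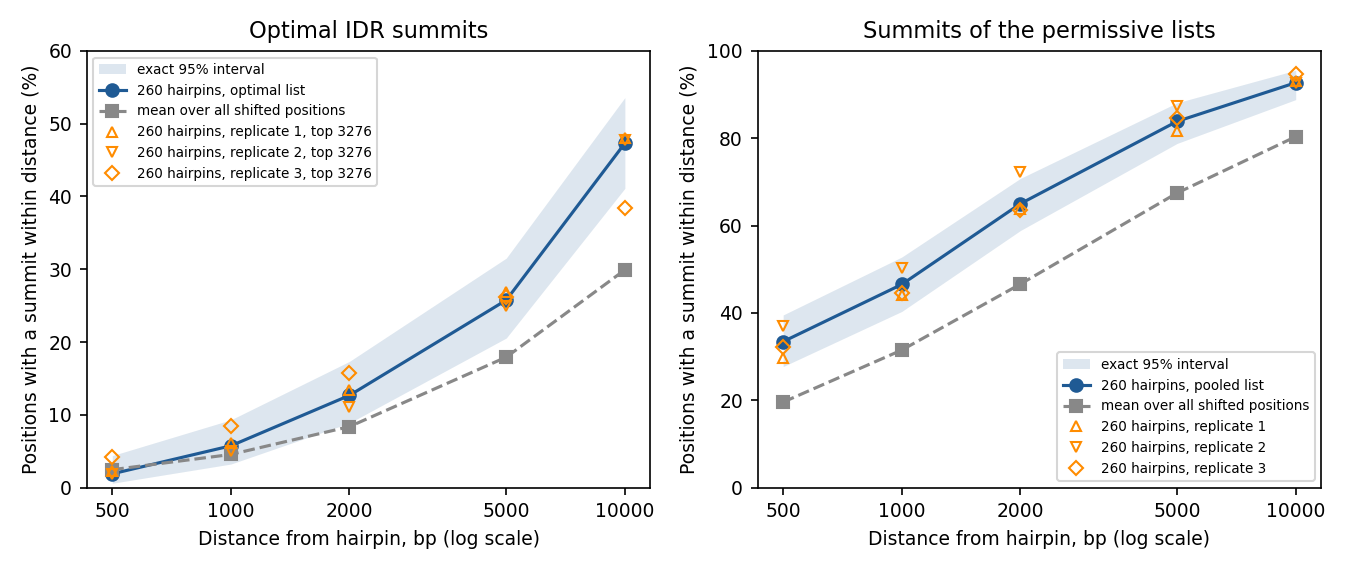
Share of the 260 microRNA hairpins (%) with a summit within 500 to 10000 bp (log axis), for the optimal set and the pooled list, with exact 95% intervals as bands, the 3 replicates as open symbols, and the mean over all shifted arm positions as a dashed line (shown for the optimal and pooled lists, not per replicate). For optimal summits the lines lie close at 1000 bp (5.77% and 4.58%) and part by 10000 bp (47.3% and 29.9%), and for permissive lists the hairpins lie above at each distance.

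The strongest binding beside a hairpin was at mir-279. miR-279 is known for limiting the formation of CO2-sensing neurons, and its gene and that of mir-996 are exonic in the long non-coding RNA lncRNA:CR31044, their shared primary transcript. mir-279 (FBgn0262448) is annotated at 3R:29215585-29215684 on the plus strand. The peak at 3R:29215158-29215389 had its summit 322 bp upstream of the hairpin and a signal of 560, rank 60 of 28496. Its rank was 55 in replicate 1, 53 in replicate 2 and 96 in replicate 3, with signals of 244, 189 and 135 on each list's own scale. All 3 replicates thus placed this peak among their very strongest. The ELBA site shown above started 12 bp before the summit. Of all 3276 optimal summits, 226 (6.90%) had CCAATAAG within 100 bp.

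A further pair of optimal peaks lay in or just upstream of the same transcript unit. One had its summit at 29214437, 125 bp upstream of the only annotated TSS of lncRNA:CR31044, with a signal of 484, rank 90, and ranks of 74, 185 and 109 in the replicates. That summit held neither word. The other, at 29215462, was 123 bp upstream of mir-279 and weak, with a signal of 112 and rank 3100. Its replicates did not agree in strength: rank 14072 in replicate 1, 1894 in replicate 2 and 1381 in replicate 3. Only the first and the strongest of these peaks were strong in every replicate.

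mir-996 (FBgn0262404), 1722 bp from the nearest optimal summit, had a pooled summit inside its hairpin at 29217228. That region ranked 4216, just below the optimal set, and ranked 8198, 3485 and 3981 in the replicates. In all, 9 pooled regions had their summit along lncRNA:CR31044 or within 500 bp upstream of it, of which 3 were optimal. The cluster thus had 1 hairpin beside a strong peak and 1 under a weaker region.

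mir-275 and mir-305 form a cluster on 2L, and miR-305 is known for a role in adult gut stem cells. mir-275 lies at 2L:7425795-7425892 in an exon of lncRNA:CR43857, and mir-305 at 2L:7425972-7426044 beyond its annotated end, so that it counted as intergenic. The peak at 2L:7426477-7426900 had its summit 797 bp downstream of mir-275 and 645 bp downstream of mir-305. Its signal was 354, rank 263, and it ranked 169, 370 and 362 in the replicates. This peak was also 177 bp from the TSS of muc, a gene of the pyruvate dehydrogenase complex, so the summit was closer to muc than to either hairpin. The palindrome shown above started 22 bp after the summit. The palindrome was within 100 bp of 300 of all optimal summits (9.16%).

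mir-iab-4 and mir-iab-8 are read from the same bases of the bithorax complex on opposite strands, 3R:16856275-16856342, and are known to repress the Hox genes Ubx and abd-A. Their hairpins are shown to make the overlap visible, with the mature arms in capitals.
mir-iab-4 (plus strand): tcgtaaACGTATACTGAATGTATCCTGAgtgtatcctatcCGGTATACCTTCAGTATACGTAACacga
mir-iab-8 (minus strand): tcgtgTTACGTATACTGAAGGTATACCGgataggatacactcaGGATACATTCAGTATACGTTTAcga

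The optimal summit at 16857240 lay 898 bp away, downstream of mir-iab-4 and upstream of mir-iab-8. It had a signal of 217, rank 833, and ranks of 1993, 616 and 506 in the replicates. It lay within lncRNA:iab8 and the protein-coding gene MSAmiP, both hosts of mir-iab-8. The nearest TSS, 7002 bp away, was that of lncRNA:iab4, which is the host of mir-iab-4. A weaker pooled region, rank 19445, had its summit only 55 bp from both hairpins, and the nearest replicate regions ranked 5852, 24658 and 20378. Strong binding at this locus therefore sat away from start sites and beside, not at, the double-stranded hairpin locus.

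mir-92a and mir-92b lie within jigr1, a gene for a DNA-binding protein, and the mir-92 locus is known in neuroblasts. The summit at 3R:25646796-25647219 was 408 bp downstream of mir-92a, with a signal of 215, rank 860, and ranks of 793, 1010 and 1393. It was also 238 bp from a TSS of jigr1. That TSS lay downstream of mir-92a, so a transcript from it would not hold this hairpin. mir-92b was 4390 bp from the same summit. A pooled summit, not in the optimal set, was 126 bp from mir-92b.

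mir-282, mir-8 and mir-9374 lay just downstream of peaks at the start of their hosts. mir-282 is exonic in lncRNA:CR43626, and the summit 399 bp from a TSS of that gene lay 827 bp upstream of the hairpin, with a signal of 185, rank 1222, and ranks of 1490, 1031 and 2062. mir-8, known for growth control through the fat body, is exonic in lncRNA:CR43650, where a peak of signal 121 and rank 2726 was 120 bp from a TSS and 863 bp upstream of the hairpin. Its replicate ranks were 3300, 3022 and 4478, so only replicate 2 placed it among its strongest 3276. mir-9374 is exonic in Hr39, which encodes a nuclear receptor. Its peak had a signal of 121 and rank 2721, ranked 2129 and 1101 in replicates 1 and 3, and had no region within 200 bp in replicate 2.

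mir-4949 is exonic in ATPsynC, which encodes subunit c of the mitochondrial ATP synthase. The summit 390 bp upstream of the hairpin lay 132 bp from a TSS of ATPsynC and had a signal of 239, rank 683. The nearest regions ranked 667 in replicate 1, 799 in replicate 2 and 3289 in replicate 3, where a stronger region, rank 632, lay 265 bp from the hairpin. All 3 replicates thus held a strong region near mir-4949, with the summit at a shifted place in replicate 3.

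The remaining near loci had weaker or less even peaks. mir-9377, in an intron of Tis11, a gene for an mRNA decay factor, was 813 bp from a summit of rank 1488, with ranks of 2593, 3681 and 418. mir-4981 was intergenic and 813 bp from a summit of rank 2253, with ranks of 1408, 2663 and 16486. The clustered intergenic pair mir-982 and mir-303 lay 479 and 129 bp from a summit of rank 3234 that was only 40 bp from the TSS of CG3626, with ranks of 3226, 5059 and 3829. mir-308, in an intron of the ribosomal protein gene RpS23, was 872 bp from a summit of rank 3253, with ranks of 4015, 3906 and 2778. mir-9377 and mir-4981 were the least even of these: one replicate stood far above the rest for mir-9377, and one far below for mir-4981.

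**Figure D2:**
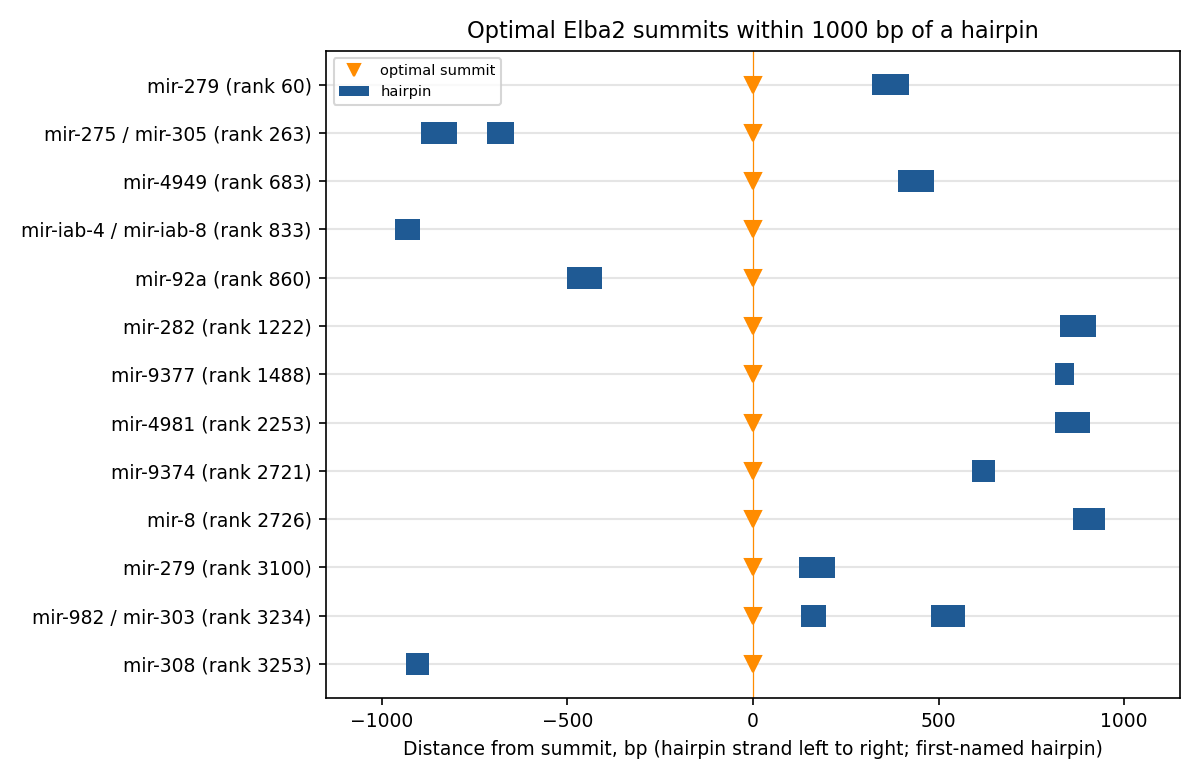
Position of the hairpins (bars, drawn to their length) relative to each of the 13 optimal summits within 1000 bp of them (triangles), in bp along the strand of the first-named hairpin, from the strongest peak at the top (pooled rank in brackets). Hairpins lie to the right where the summit is upstream of them, as for mir-279 at 322 bp and 123 bp, and to the left where it is downstream, as for mir-275 and mir-305. mir-iab-8 is read on the opposite strand.

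Counted together, 13 optimal peaks lay near the 15 hairpins, with signals from 109 to 560 and a median of 169, against 159 for all optimal peaks. Of the 13, 7 were among the strongest 1638. A TSS of a gene other than the hairpins lay within 500 bp of 7, whereas 2000 of all 3276 optimal peaks (61.1%) had one. For the 7 these were the hosts ATPsynC, jigr1, lncRNA:CR43626, Hr39 and lncRNA:CR43650, and the neighbours muc and CG3626. One of the 13 held the ELBA site and 1 the palindrome. From the hairpin's side, the nearest optimal summit was upstream of 10 hairpins and downstream of 5, and the nearest pooled summit was upstream of 61, downstream of 47 and inside 13. With so few peaks these features did not set the group apart from all optimal peaks.

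**Figure D3:**
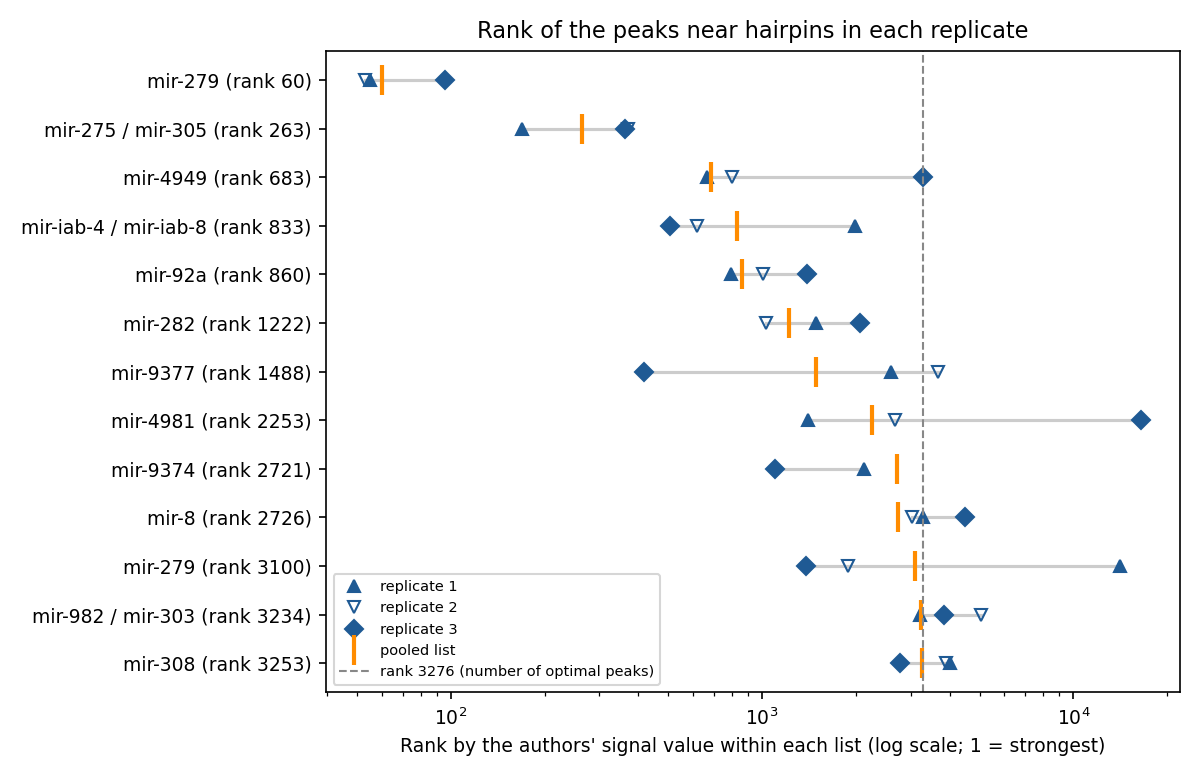
Rank (log axis, 1 = strongest) of the 13 optimal peaks near hairpins in the pooled list (bars) and of the nearest region within 200 bp in each replicate (symbols), with rank 3276, the number of optimal peaks, as a dashed line. The strongest mir-279 peak lies between ranks 53 and 96 in the replicates, while the peak at mir-4981 spans 1408 to 16486 and mir-9374 has no symbol for replicate 2.

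Where a hairpin lies relative to other genes gave no clear order for strong peaks. The 260 hairpins divided by annotation into 82 in exons of another gene on the same strand, 100 in introns on the same strand, 27 within a gene on the other strand only, and 51 intergenic. Of the exonic hairpins, 47 had a non-coding RNA host and 35 had protein-coding hosts alone. An optimal summit lay within 1000 bp of 7 of 82 exonic hairpins (8.54%, interval 3.50 to 16.8) and 4 of 100 intronic hairpins (4.00%, interval 1.10 to 9.93). All exon positions of the arms had 7.30% and all intron positions 3.54%, and both lie inside the intervals. Intergenic hairpins had 4 of 51 (7.84%, interval 2.18 to 18.9) against 3.14% of intergenic positions, which the interval also holds. The 27 hairpins with a gene on the other strand only had none, and the interval reaches 12.8%.

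For pooled regions the exonic, intronic and intergenic classes each exceeded their own kind of position. The shares were 56.1% of exonic hairpins against 40.3% of exon positions, 43.0% of intronic hairpins against 29.5% of intron positions, and 45.1% of intergenic hairpins against 24.3% of intergenic positions. The lower ends of the intervals were 44.7%, 33.1% and 31.1%, each above the class of positions. Hairpins of a cluster can share a region, however. Single hairpins had 47.4% of 57 exonic (34.0 to 61.0), 42.2% of 83 intronic (31.4 to 53.5) and 40.0% of 25 intergenic ones (21.1 to 61.3). Of these intervals, only the intronic one lay above its positions. Clustered exonic hairpins had 19 of 25 (76.0%), and the 8 of the mir-309 cluster are among them. Mirtrons, short introns that fold into a hairpin and bypass Drosha, had no optimal summit within 1000 bp in 34 cases, where the interval reaches 10.3%, against 4.53% of arm positions. A pooled summit lay near 15 of them, 44.1% (interval 27.2 to 62.1) against 31.2% of arm positions, which the interval holds.

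**Figure D4:**
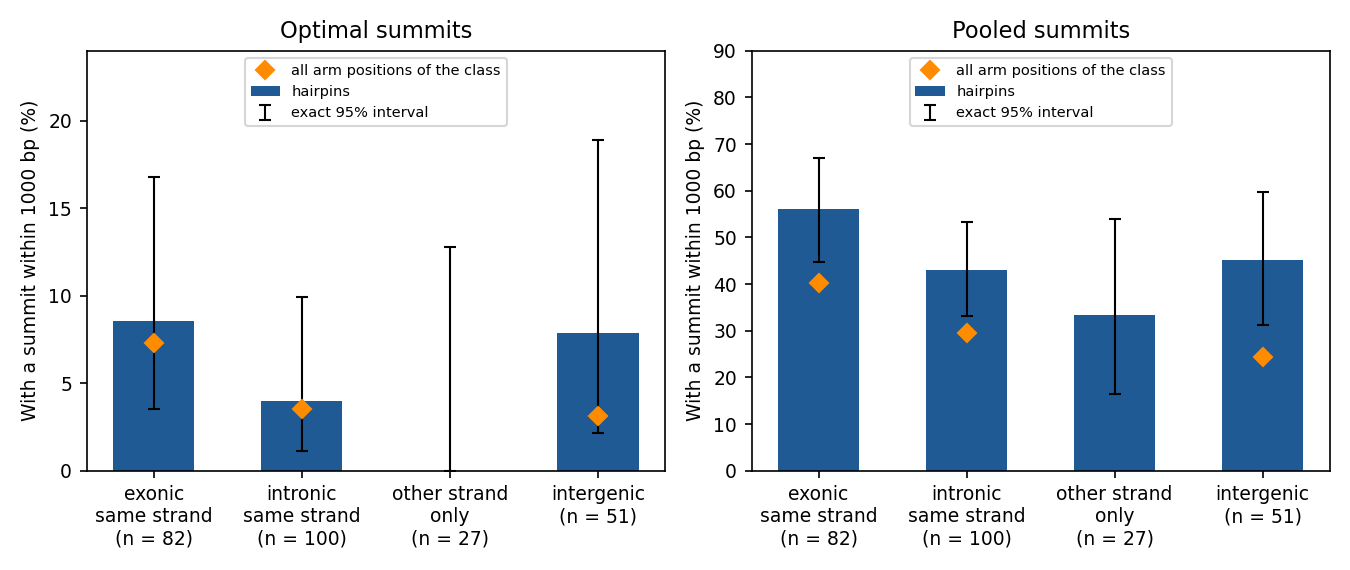
Share (%) of hairpins in each annotation class with an optimal (left) or pooled (right) summit within 1000 bp, as bars with exact 95% intervals, beside the share of all arm positions of the same class (diamonds; none computed for hairpins with a gene on the other strand only). For optimal summits the diamonds fall inside the intervals, and for pooled summits they fall below them (40.3%, 29.5% and 24.3%).

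Same-strand hairpins whose neighbours lay within 10 kb were counted as clusters. This gave 203 loci, 22 clusters with 79 hairpins and 181 single hairpins, of which 13 loci (6.40%) lay within 1000 bp of an optimal summit. Clustered hairpins stood at 6 of 79 (7.59%) and single hairpins at 9 of 181 (4.97%), with intervals that overlap. Of the clusters, 4 of 22 were near: mir-279 with mir-996, mir-275 with mir-305, mir-92a with mir-92b, and the X cluster of mir-982, mir-303, mir-983-1, mir-983-2 and mir-984. The largest cluster, the 12 hairpins around mir-972 to mir-979 on X, was 3930 bp from the nearest optimal summit. The cluster of mir-959 to mir-964 on 2L was the farthest, at 82494 bp, and its nearest pooled summit was 10640 bp away.

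Hairpins with symbols numbered above 2000, which were named later, had 4 of 108 (3.70%) near an optimal summit, and the others 11 of 152 (7.24%). For pooled regions the shares were 43.5% and 48.7%. The intervals overlap in both cases.

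Just inside the distance of 1000 bp were mir-iab-4 and mir-iab-8 at 898 bp, mir-308 at 872 bp and mir-8 at 863 bp. Just outside were mir-2c at 1055 bp, mir-2497 at 1077 bp, mir-13a at 1284 bp, mir-4962 at 1297 bp and mir-9384 at 1385 bp. Bantam (mir-ban), a microRNA that promotes growth and blocks apoptosis, and mir-980 followed, both at 1391 bp. The optimal peak nearest to bantam ranked 1702, with 2110, 2291 and 958 in the replicates. That peak lay 1103 bp from the nearest TSS of the host lncRNA:CR43334, and a pooled region of rank 13097 was 534 bp from the hairpin.

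Among 37 well known loci, 4 (10.8%) lay within 1000 bp of an optimal summit and 28 (75.7%) within 1000 bp of a pooled one, beside 5.77% and 46.5% of all hairpins. Of the 37, 8 belong to the mir-309 cluster, and without them the counts were 4 and 20 of 29 (13.8% and 69.0%). The loci were chosen by hand and no test was made. mir-263a was also on the list but was searched by that symbol alone, which the annotation does not hold. It may stand there under another name, as bantam and let-7 do, so its absence from the 37 says nothing about binding there. The median distances were 7409 bp and 287 bp. The 4 were mir-279, mir-8, mir-iab-4 and mir-iab-8. mir-9a, which limits sensory organ formation, was 4328 bp from a peak of rank 132, and mir-14, which acts in cell survival and fat metabolism, was 6587 bp from a peak of rank 46. mir-124, a microRNA of the nervous system, was 52129 bp away and mir-1, of muscle, 60596 bp away, although pooled regions came to 171 bp and 369 bp. The hairpins mir-100, mir-let7 and mir-125, made as one transcript in later development, were 27902, 28502 and 28783 bp from an optimal summit and 1979, 1401 and 1088 bp from a pooled one. mir-184 lay at 90065 bp and mir-276a at 105836 bp, the farthest of the 37.

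The mir-309 cluster is of interest because its microRNAs are made at the onset of zygotic transcription and help to clear maternal messages. Its 8 hairpins, mir-309, mir-3, mir-286, mir-4, mir-5, mir-6-1, mir-6-2 and mir-6-3, span 1059 bp at 2R:19660716-19661774. No optimal peak was near, the closest being 7156 bp from mir-309 and 8135 bp from mir-6-3. The pooled list had 5 regions within 1000 bp of the cluster, the strongest of rank 6544 with a signal of 73.7. In replicates 1, 2 and 3 the strongest region there ranked 3952, 4147 and 1256, with signals of 45.3, 33.2 and 47.9. Replicate 3 alone placed the cluster among its strongest 3276 regions, and the optimal set did not hold it. The mir-310 to mir-313 cluster, which shares the seed of mir-92a, lay nearer, at 1513 to 1951 bp from a summit of rank 2150.

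**Figure D5:**
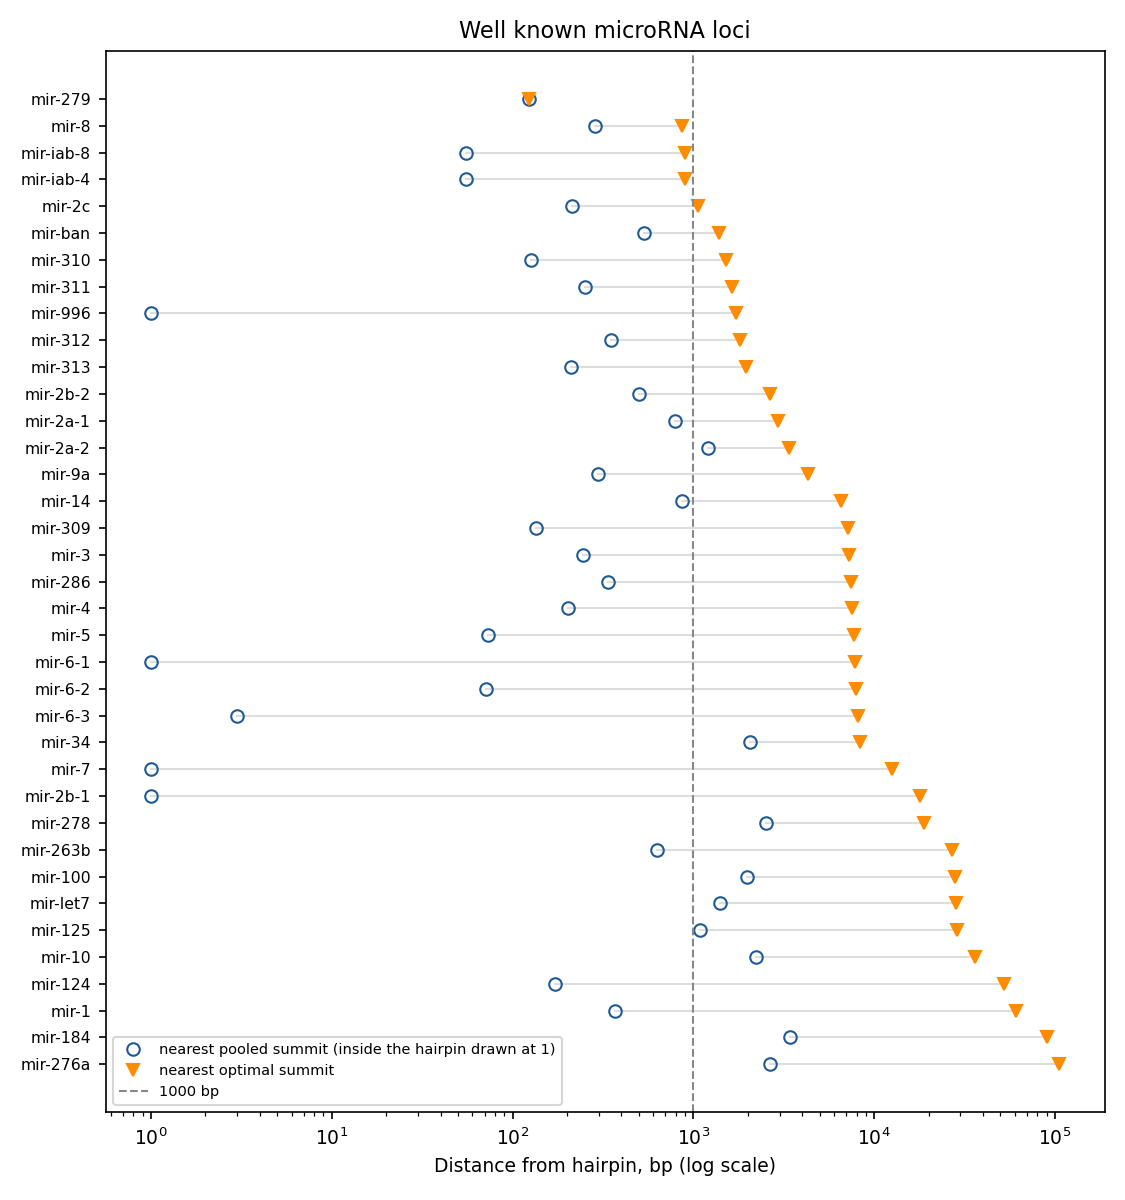
Distance in bp (log axis) from each of 37 well known hairpins to the nearest pooled summit (circles) and the nearest optimal summit (triangles), sorted by the latter, with 1000 bp as a dashed line and summits inside the hairpin drawn at 1. mir-279 is nearest at 123 bp and mir-276a farthest at 105836 bp, and 28 of the circles lie within 1000 bp.

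Host genes were then examined at their start sites. A host counted as bound where an optimal summit lay within 500 bp of any of its annotated TSSs, whether that TSS lay upstream or downstream of the hairpin. Of 165 same-strand hosts, 29 were bound (17.6%), and 33 of the 182 hairpins with a host had a bound one. Among protein-coding hosts, 26 of 128 were bound, 20.3% (interval 13.7 to 28.3), against 17.9% of all protein-coding genes. Among non-coding RNA hosts, 3 of 37 were bound, 8.11% (interval 1.70 to 21.9), against 4.55% of all ncRNA genes. Both shares were near those of all genes of the kind and give no result about hosts.

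Hosts differ from other genes in size. Protein-coding hosts had a median length of 14095 bp and 2 TSSs, against 2165 bp and 1 TSS for all protein-coding genes. With 1 TSS, 5 of 56 hosts were bound (8.93% against 14.9% of all such genes), with 2 or 3 TSSs 14 of 52 (26.9% against 24.6%), and with 4 or more 7 of 20 (35.0% against 37.3%). The pooled list reached the TSS of 70.3% of protein-coding hosts against 53.2% of all, and of 59.5% of ncRNA hosts against 27.7%. The part of gene length and TSS number in the pooled shares was not tested.

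The bound hosts shared 27 peaks, with signals from 109 to 484. The strongest after lncRNA:CR31044 was at tacc, a gene for a centrosomal protein and host of mir-9384, with a signal of 444, rank 130, and ranks of 161, 157 and 104. Btk, a tyrosine kinase gene and host of mir-2b-1, followed with a signal of 327, rank 321, and ranks of 296, 194 and 1019. Both were strong in each replicate, but the hairpins lay 9096 bp and 19149 bp from these summits. mir-9384 lay upstream of the bound tacc start, so a transcript from that start would not hold it. MRP, an ABC transporter gene and host of mir-9382, had a signal of 212, and for, the gene of a cGMP-dependent kinase and host of mir-4972, had 209. Likewise, mir-4972 lay upstream of the bound start of for. HnRNP-K, an RNA-binding protein gene and host of mir-7, had 146, with ranks of 1589, 1854 and 2357.

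Several hosts are regulators with hairpin groups of their own. E2f1, a cell cycle transcription factor gene, hosts mir-11 and mir-998, and its peak had a signal of 135 and ranks of 5595, 5046 and 527, so that replicate 3 alone placed it high. spi, the gene of an EGF receptor ligand, hosts mir-2a-1, mir-2a-2 and mir-2b-2, with a signal of 111 and ranks of 2201, 3453 and 20791. Oda, the ornithine decarboxylase antizyme gene, hosts mir-281-1 and mir-281-2, with a signal of 147, ranks of 4219, 1685 and 580, and a palindrome near the summit. The remaining bound hosts were ATPsynC, jigr1, Usp12-46 and CG7029 (a shared start, mir-4953), Mob2 (mir-4968), lncRNA:CR43626, Lerp (mir-1012, a mirtron), PAPLA1 (mir-4984), Tob (mir-4958), CG5953 (mir-4943), Glut4EF (mir-9371), CG6695 (mir-1003, a mirtron), Tomosyn (mir-970), Hr39, lncRNA:CR43650, rdgA (mir-4964), her (mir-2497), chk and CG45092 (a shared start, mir-4975), and CG12241 (mir-9383). Of the 27 peaks, 3 held the palindrome and none the ELBA site. Starts of other genes lay within 500 bp of several of these summits too. They were Pih1D1 at MRP, rumi at Usp12-46, CG7394 at Mob2, IntS12 at Lerp, Rbsn-5 at PAPLA1 and Nnf1a at HnRNP-K. Further ones were CG46467 at Glut4EF, CG31125 at CG6695, Trpgamma at her, msb1l at spi and SIDL at CG12241. Replicates were uneven at some, with ranks of 2116, 2128 and 19267 at Lerp and 2625, 2951 and 13715 at her. Tomosyn had no region within 200 bp in replicate 1.

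A bound host start was seldom close to the hairpin. Over the 35 pairs of a hairpin and a bound host, the summit lay 390 to 114453 bp from the hairpin, with a median of 4686 bp and 5 pairs within 1000 bp. The 5 were mir-4949 with ATPsynC, mir-92a with jigr1, mir-9374 with Hr39, mir-282 with lncRNA:CR43626 and mir-8 with lncRNA:CR43650. Of these, mir-92a lay upstream of the bound start of its host and the others downstream. The farthest was mir-9371, at 114453 bp from the summit at the start of Glut4EF.

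The genes that make and use microRNAs were listed with their RNA interference relatives, 19 genes in all. Of these, 5 (26.3%) had an optimal summit within 500 bp of a TSS, beside the 17.9% of all protein-coding genes, and 16 (84.2%) had a pooled one, beside 53.2%. The nuclear enzyme gene drosha had a signal of 149, rank 1847, with ranks of 3948, 950 and 3661, at a start shared within 500 bp with rnh1. AGO1, the gene of the microRNA-loading Argonaute, had 142, with ranks of 4176, 3078 and 923. Dcr-2 and r2d2, which encode the small interfering RNA dicer and its partner, had 138 and 137, with ranks of 2902, 1220 and 1888 for Dcr-2 and of 4119, 11664 and 2228 for r2d2. Cbp20, a cap-binding protein gene, had 128, with ranks of 1969, 3554 and 2413. Starts of other genes also lay within 500 bp of the summits at AGO1 (CG33155 and mRpL53), r2d2 (Herp) and Cbp20 (CG7218). Dcr-2 alone had no other gene start there. The 5 peaks were all of the weaker part of the optimal set, and only Dcr-2 was among the strongest 3276 regions of every replicate.

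The other 14 genes had no optimal summit within 500 bp. They were pasha, Dcr-1, loqs, gw, Ranbp21, Ars2, Cbp80, AGO2, Hen1, me31B, twin, Pop2, tsu and Tudor-SN. pasha, Drosha's partner gene, was 1812 bp from a peak of rank 592, and gw, the gene of an Argonaute partner in silencing, 1728 bp from a peak of rank 342. Dcr-1, the microRNA dicer gene, was 9627 bp from the nearest optimal summit, and loqs, its partner's gene, 3912 bp.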

How the data were processed

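ChIP-seq of Elba2 fused to green fluorescent protein was analysed in 3 replicates of embryos aged 0 to 4 h. Per the notes deposited with the files, the authors called peaks and background against a control, in single replicates and in their pool, and took the optimal set by IDR. Which aligner, peak caller and IDR cutoff they used is not given in the sources used here. The signal value of each deposited peak is the authors', of unstated scale, and served only to rank and filter within a list. The deposited summit offset gave the summit. Lists on build dm3 were not used, and 0 columns of other samples were present. Depth is unknown.

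Genes came from Ensembl release 115 (annotation BDGP6.54), which is on the assembly of dm6, without its entries for mature RNAs. Sequences came from the RefSeq copy of the Release 6 genome. Coordinates are 1-based. Distances ran from the nearest base of the hairpin to the summit, with 1000 bp as the limit. The level of arm positions is the mean over all circular shifts along the arm, computed exactly, with no test. The levels of exon, intron and intergenic positions, and of positions near a TSS, were instead counted over single bases. Their reach is slightly narrower than that of a hairpin measured from its nearest base. The exon, intron and intergenic levels also pool both strands and are not weighted by arm. A host is another gene over the hairpin on the same strand, and a bound TSS has an optimal summit within 500 bp. Replicate ranks are those of the nearest region with its summit within 200 bp. Words were searched within 100 bp of summits. Mirtron ends matched intron ends within 2 bp. No p-value was computed, since there is 1 group. Whether the labelled biological replicates came from separate embryo collections is not stated.

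The text names each hairpin near an optimal summit, each bound host, the biogenesis list and a list of well known loci. Clusters at the extremes, hairpins just outside the limit and hosts' neighbours were named after their values were seen. Members and lists were chosen with earlier results of these data known. Alternatives changed the distances, the peak set, the hairpin end, the cluster gap and the host strand. Of 20 biogenesis symbols listed, 19 were separate genes, 2 of them matched by synonym. Python 3.11.15, numpy 2.4.6, pandas 2.3.3 and scipy 1.17.1 were used. Functions were tested on simulated data.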

Additional observations from a re-analysis of the deposited data

How the results depend on the processing

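No paired analysis was possible because the 3 replicates form 1 group. The 15 hairpins within 1000 bp of an optimal summit became 5 at 500 bp, 33 at 2000 bp and 67 at 5000 bp, 9 with the strongest 1638 peaks and 8 with the 1844 peaks in the top regions of all replicates. With regions shared by the other 2 replicates they were 8 to 11, the 8 coming without replicate 1. In all 5 of these other peak sets 8 hairpins remained: mir-275, mir-305, mir-282, mir-iab-4, mir-iab-8, mir-92a, mir-279 and mir-4949. The levels of arm positions for these 5 sets were 2.37% for the strongest peaks, 2.63% for peaks in all replicates, and 3.01% to 3.34% for sets without a replicate. The 13 loci became 4 at 500 bp, 24 at 2000 bp, 8 with the strongest peaks and 7 to 10 without a replicate, lowest without replicate 1. The 29 bound hosts became 13 with the strongest peaks and 18 to 20 without a replicate, 18 without replicate 1 or 3. The 5 bound biogenesis genes became 0 with the strongest peaks and 2 to 3 without a replicate. The share of all protein-coding genes bound fell with them, from 17.9% to 10.02% with the strongest peaks and to 11.6%, 12.4% and 13.8% without replicate 1, 2 and 3. Fewer peaks enter each of these smaller sets: 2114, 2165 and 2366 remained without replicate 1, 2 and 3. The 121 hairpins near a pooled summit ranged from 87 at 500 bp to 169 at 2000 bp, within 1.5 times, with 109 against 27.5% of arm positions when regions near optimal summits were left out. The 5′ end of the hairpin (15), a cluster gap of 3 kb (13 loci), TSS distances of 250 bp (24 hosts) and 1000 bp (39 hosts) and hosts on either strand (32) stayed within 1.5 times. Depth could not be examined, and the weakest optimal peaks, such as those at mir-308 and mir-982, rest on ranks close to 3276.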

Other observations

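Pooled summits inside a hairpin were found at 13 loci. The strongest after mir-996 was at mir-4974, in an intron of CG8671, where the region ranked 7631 and the nearest replicate regions ranked 4320, 5168 and 15281. mir-7, known in eye and sensory organ development, had one of rank 18095 within its hairpin in HnRNP-K. mir-2b-1 had one of rank 26305 in an exon of Btk. All 13 regions ranked below the weakest optimal peak at rank 3276, from 4216 at mir-996 to 26559 at mir-4985.

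Some hosts without a bound start lay in the neighbourhood of very strong peaks. The nearest optimal summit to the TSS of nwk, host of mir-4940, had a signal of 671 and rank 32, at a distance of 12107 bp. That of lncRNA:CR43651, host of mir-14, ranked 46 at 5669 bp. These peaks lay at the starts of other genes, bol for the first and CG1888 for the second. They were picked out after their values were seen, by their rank among the nearest peaks of unbound hosts.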
